A study of Rattus norvegicus with 138 samples.

Results

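Copper (Cu) pellets in rat muscle were set against tantalum (Ta) pellets by the miRNAs found in serum at 4 times after surgery. The 16 Cu libraries were chosen by metal and month from the column names, with 4 each at 1, 3, 6 and 12 months, and the 15 Ta libraries comprised 4 each at 1, 3 and 12 months and 3 at 6 months. These 31 are part of a table in which 107 further libraries come from rats with 7 other metals. All rats were male Sprague-Dawley animals, 3 months old at surgery, and each carried 4 pellets, with 2 in each gastrocnemius (calf) muscle. Rats of the Cu groups carried Cu pellets and rats of the Ta groups carried Ta pellets, Ta being the inert metal that stands for the operation itself. Every group in the table was operated on. The question was whether embedded Cu leaves a trace in circulating miRNAs that the inert metal does not.

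MicroRNAs (miRNAs) are short RNAs that guide Argonaute proteins to messenger RNAs, mainly through pairing of their seed, bases 2 to 8. Those in serum are protected in vesicles or protein complexes and come from blood cells, endothelium, liver and other organs. miR-451-5p and miR-16-5p are abundant in red cells, so haemolysis during blood drawing adds them to serum. miR-122-5p is made in hepatocytes, and miR-1, miR-133 and miR-206 (the myomiRs) are made in striated muscle. The tissue that holds the pellets is therefore among those that can be read in serum. In serum, more RNA released by a cell type and more cells releasing it cannot be told apart.

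The mature sequences below, in RNA letters with the seed in capitals, are those of the miRNAs on which the results turn. They are RefSeq's for the assembly GRCr8, which held 434 of the 471 names in the table. miR-451-5p and miR-16-5p are the red-cell miRNAs, followed by miR-26a-5p, a widely expressed miRNA.
miR-451-5p: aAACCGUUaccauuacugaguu
miR-16-5p: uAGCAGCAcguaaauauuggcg
miR-26a-5p: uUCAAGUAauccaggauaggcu
miR-423-5p and miR-140-3p were among the miRNAs higher in Cu at 12 months.
miR-423-5p: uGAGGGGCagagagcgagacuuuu
miR-140-3p: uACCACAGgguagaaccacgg
The let-7 members share the seed GAGGUAG, and 3 of the 9 are shown to let their tails be compared.
let-7g-5p: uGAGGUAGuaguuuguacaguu
let-7a-5p: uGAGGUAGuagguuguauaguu
let-7e-5p: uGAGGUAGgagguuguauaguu
The myomiRs miR-1-3p, miR-1b and miR-206-3p share the seed GGAAUGU.
miR-1-3p: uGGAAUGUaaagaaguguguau
miR-1b: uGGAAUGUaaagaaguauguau
miR-206-3p: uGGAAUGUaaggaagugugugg
miR-133a-3p: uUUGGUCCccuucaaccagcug

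On GRCr8 the miR-451-5p sequence lies on the plus strand at chr10:63459585-63459606. The miR-423-5p sequence lies on the minus strand at chr10:62412317-62412340, and miR-140-3p on the plus strand at chr19:52375353-52375373. Counting from the 5′ end of miR-1-3p, miR-1b differs from it at 1 of 22 positions, by G17A, so reads of the pair may have been shared between them and their counts are uncertain. miR-206-3p differs from miR-1-3p at 3 positions, A11G, A21G and U22G. miR-133b-3p differs from miR-133a-3p at 1 of 22 positions, by G22A, so the counts of that pair are uncertain as well. miR-1-3p and miR-133a-3p start 2453 bases apart on chromosome 18.

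Values are CPM, counts scaled to a common library size after TMM normalization, comparable within a month but not across months. Differences are log2 of Cu over Ta, with Benjamini-Hochberg adjusted p-values from edgeR's quasi-likelihood test over all miRNAs of a comparison. The threshold for a call was 0.05. Standard errors were worked back from that test's F statistic, whose spread is shared by all metals in the fit. The design has serum drawn from each rat at all 4 times, but nothing in the labels ties a library of one month to a library of another. Libraries were therefore treated as independent, and p-values measure the spread between libraries. In the average and the change over months, standard errors and p-values leave out any dependence between libraries of the same rat. Libraries of Cu held 138922 to 4205275 counts. Those of Ta held 1645 to 2195682, and the smallest of them, Ta replicate 3 at 3 months with 36 miRNAs detected, was the only Cu or Ta library among the 6 of the table under 20000 counts. Comparisons that this changes are therefore given also without those 6.

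Library totals of Cu and Ta did not overlap at 2 of the 4 months. At 1 month the Cu libraries held 1804229, 1542657, 622969 and 726581 counts, against 377666, 539673, 455929 and 316852 in Ta, with no overlap (exact two-sided permutation p = 0.0286, the smallest that 4 against 4 libraries allow; adjusted p = 0.257 over 12 tests). At 6 months the Cu libraries held 1623413 to 4205275 counts, against 720097 to 1354321 in Ta, again without overlap (exact permutation p = 0.0571, the smallest that 4 against 3 allow; adjusted p = 0.257). At 12 months the order of the mean depths was turned round, with 232411 to 740656 counts in Cu against 351094 to 1168200 in Ta, and the ranges overlapped. The number of miRNAs detected overlapped between Cu and Ta at every month, and 0 of the 12 tests on library measures passed after adjustment. RLE scaling in place of TMM moved the median log2 difference of all miRNAs by -0.24 at 1 month and 0.29 at 3 months, so that 129 miRNAs were higher and 137 lower in Cu at 1 month (158 and 108 with TMM) and 88 and 79 at 3 months (71 and 96 with TMM).

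**Figure D1:**
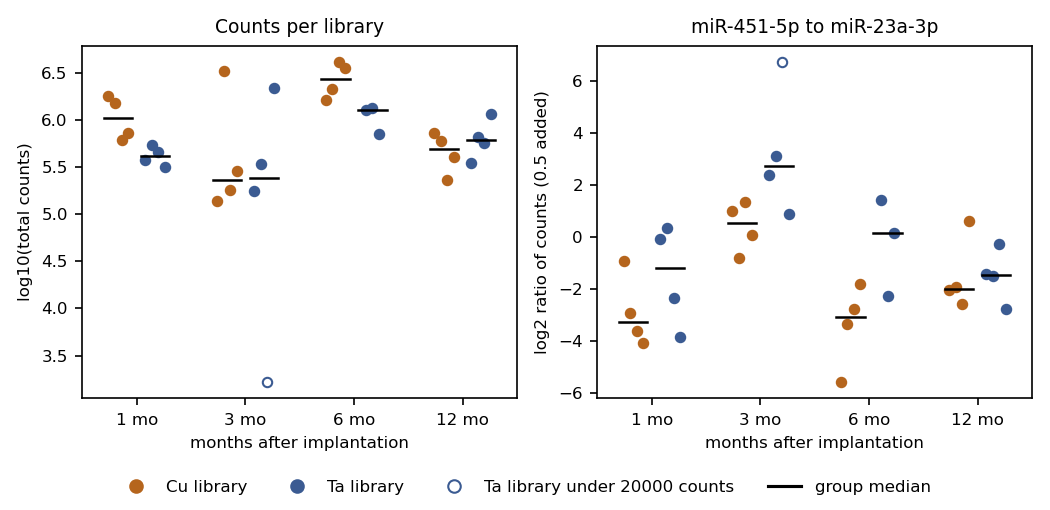
Counts per library (left, log10 axis) and the log2 ratio of miR-451-5p to miR-23a-3p, a haemolysis index (right), by month, with Cu libraries left of Ta libraries and a bar at each group's median. Cu libraries lie above all Ta libraries in counts at 1 and 6 months, and the open circle is the Ta library with 1645 counts, which also has the highest ratio.

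Averaged over the 4 months with equal weight, miR-451-5p alone among 320 tested miRNAs was called, which is 0.312% of those tested; 23 had an unadjusted p under 0.05 (7.19%). It was lower in Cu by log2 -2.32 ± 0.53 (SE; adjusted p = 0.00743). miR-451-5p is a red-cell miRNA that Argonaute2 matures without Dicer. The call was lost without the libraries under 20000 counts, when 0 of 326 miRNAs were called (0%), 23 had an unadjusted p under 0.05, and miR-451-5p stood at -1.33 ± 0.46 (adjusted p = 0.319). Leaving out Ta replicate 3 at 3 months alone gave -1.40 (adjusted p = 0.407), leaving out Ta replicate 1 at 6 months gave -1.89 (adjusted p = 0.140), and over all alternatives the adjusted p ran from 2.05e-05 to 0.407; 29 of the 31 fits without 1 Cu or Ta library kept the call.

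Month by month, miR-451-5p differed from Ta by log2 -0.998, -4.47, -2.47 and -0.00061 at 1, 3, 6 and 12 months. At 1 month it had 2039, 787, 618 and 278 CPM in Cu against 1616, 3681, 1628 and 509 CPM in Ta. The ranges overlapped there. At 3 months it had 5671, 2732, 4295 and 1936 CPM in Cu against 7793, 18930, 289388 and 9305 CPM in Ta. Every Cu library lay below every Ta library, and the highest value came from the library of 1645 counts; without that library the difference at 3 months was -1.62 ± 1.08 (adjusted p = 1).

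At 6 months miR-451-5p had 78.7, 629, 1450 and 1440 CPM in Cu, against 11113, 622 and 3223 CPM in Ta. The second Ta library lay within the Cu range (log2 -2.47 ± 1.09, adjusted p = 0.640). Among the 9 metals of that month Cu had the lowest mean, 899 ± 669 CPM (SD, n = 4), and Ta averaged 4986 ± 5463 CPM (SD, n = 3). At 12 months the levels were 1811, 1331, 628 and 3910 CPM in Cu against 3522, 1455, 2408 and 305 CPM in Ta, and the means, 1920 and 1922 CPM, lay far closer than the spread.

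The other red-cell miRNAs had lower estimates in Cu in the average as well, without passing the test. All 9 tested members of the erythrocyte list had a lower estimate in Cu (0 higher, 9 lower), with a median log2 difference of -0.42 beside 0.04 over all 320 miRNAs, and 1 of the 9, miR-451-5p, was called. Without the low libraries the count was again 0 higher and 9 lower, the median was -0.26 beside 0.15, and 0 were called. miR-16-5p, which targets cell-cycle messages and is used as a haemolysis-sensitive serum marker, stood at -1.73 ± 0.61 (adjusted p = 0.292), and at -0.08 ± 0.57 (adjusted p = 1) without the low libraries. miR-144-3p, made from the same primary transcript as miR-451, stood at -0.76 ± 0.69 (adjusted p = 1).

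As a share of all counts, the 9 listed red-cell miRNAs made up 0.686% to 2.90% of Cu libraries at 3 months, against 3.71% to 37.9% of Ta libraries, and the 2 ranges did not overlap; without the low library the highest Ta share was 4.45%. At 6 months the shares were 0.465% to 1.69% in Cu and 1.69% to 3.83% in Ta, touching at the edge. At 1 and 12 months they overlapped. The haemolysis index, the log2 ratio of miR-451-5p to miR-23a-3p, averaged -2.87, 0.406, -3.37 and -1.48 in Cu, against -1.48, 3.27, -0.227 and -1.49 in Ta, at 1, 3, 6 and 12 months, with exact permutation p-values of 0.257, 0.0857, 0.0857 and 1 (n = 4 each, 3 for Ta at 6 months; lowest adjusted p = 0.257). Without the low library Ta averaged 2.11 at 3 months (exact permutation p = 0.143, n = 4 and 3). Both the share and the index include miR-451-5p, so neither is independent of its difference. In Ta replicate 3 at 3 months miR-451-5p alone held 22.7% of counts. The part of red-cell content in the other differences was not tested.

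**Figure D2:**
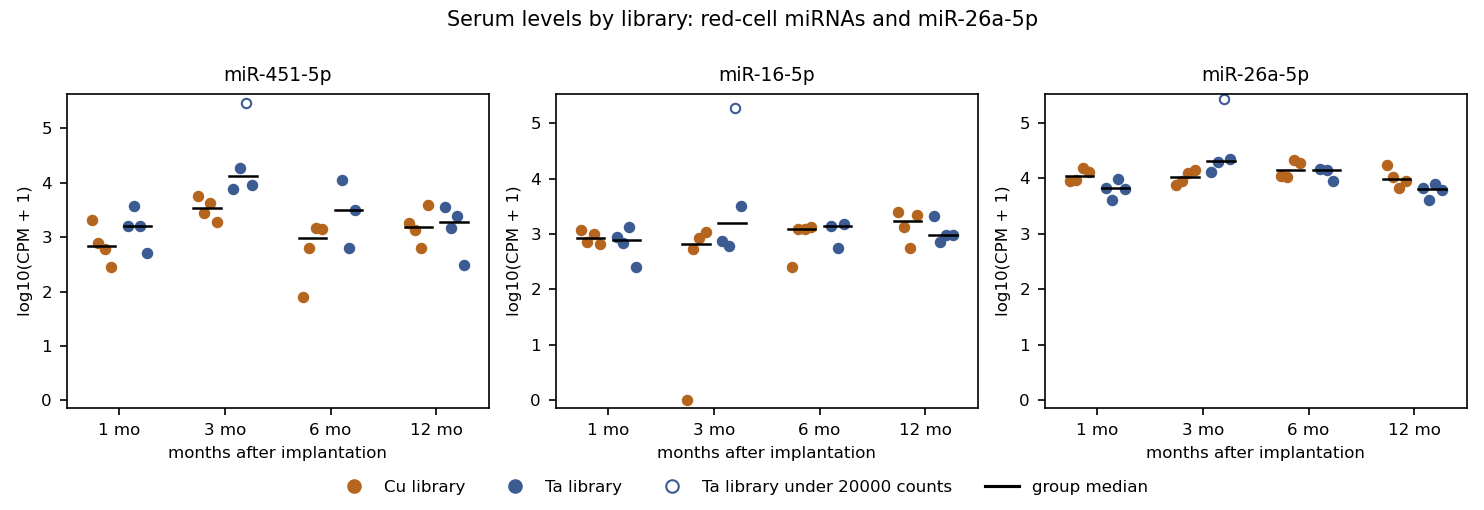
Levels of miR-451-5p, miR-16-5p and miR-26a-5p as log10(CPM + 1) in every library by month, with Cu left of Ta, a bar at each group's median, and the Ta library under 20000 counts as an open circle. In all 3 panels that library is the highest point, and at 3 months the 4 Cu libraries lie below all Ta libraries for miR-451-5p.

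At single months, 0 miRNAs were called between Cu and Ta by edgeR: 0 of 270 at 1 month, 0 of 167 at 3 months, 0 of 272 at 6 months and 0 of 224 at 12 months (0% each). At an unadjusted p under 0.05 the counts were 22 (18 higher and 4 lower in Cu; 8.15%), 9 (2 higher, 7 lower; 5.39%), 19 (3 higher, 16 lower; 6.99%) and 23 (18 higher, 5 lower; 10.3%). DESeq2 called 3 of 270, 3 of 167, 6 of 272 and 12 of 224. Its calls at 3 months included miR-183-5p (log2 26.6) and miR-196a-5p (26.5), which all Ta libraries lacked. Those at 6 months included miR-30c-2-3p (23.6), absent from all Ta libraries, and miR-361-3p (-24.4), absent from all Cu libraries. Without the libraries under 20000 counts edgeR called 0 of 289, 0 of 180 and 0 of 272 at the first 3 months, where 25, 5 and 19 had unadjusted p-values under 0.05, and 4 of 242 at 12 months (1.65%), all higher in Cu. Levels in Cu and Ta did not overlap for 9 of 270 miRNAs at 1 month (3.33%), 2 of 167 at 3 months (1.2%), 25 of 272 at 6 months (9.19%) and 21 of 224 at 12 months (9.38%). The share at 6 months is not on a par with the others, since non-overlap is easier to reach with 3 Ta libraries than with 4.

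Of the 4 months, the last had the smallest adjusted p-values. With 1 tungsten (W) library of 3789 counts left out of the fit and every Cu and Ta library kept, miR-423-5p, miR-423-3p, miR-140-3p and miR-378b were each called higher in Cu at 12 months (adjusted p = 0.0263 for each). With that library in the fit, the same 4 had the smallest p-values among miRNAs higher in Cu, and adjusted p-values of 0.0617, 0.195, 0.200 and 0.0617 in that order.

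miR-423-5p and miR-423-3p are the 2 arms of 1 hairpin. At 12 months miR-423-5p had 2203, 11107, 24526 and 4132 CPM in Cu libraries, against 3065, 575, 979 and 2339 CPM in Ta libraries. The lowest Cu library fell within the Ta range, and the means were 10492 ± 10108 CPM in Cu and 1739 ± 1162 CPM in Ta (SD, n = 4 each). The difference was log2 2.59 ± 0.65, and 2.73 ± 0.63 without the low libraries; leaving out single Cu or Ta libraries gave adjusted p-values of 0.0110 to 0.175, the highest without Cu replicate 3. miR-423-3p had 1017, 1167, 2730 and 1530 CPM in Cu against 366, 69.4, 613 and 452 CPM in Ta, with no overlap (log2 2.10 ± 0.65).

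miR-140-3p, abundant in cartilage and found in many tissues, had 2119, 3108, 2807 and 2482 CPM in Cu against 1050, 311, 668 and 1286 CPM in Ta at 12 months. The groups did not overlap, and the difference was log2 1.67 ± 0.54, or 1.88 ± 0.48 without the low libraries. miR-378b was detected in 4 of 4 Cu libraries, with 35, 34, 11 and 15 counts or 56.4, 50.2, 65.2 and 29.5 CPM, and in 0 of 4 Ta libraries. Against a floor of 3 counts over the Ta group this was at least 51.2-fold higher. At the mean level of Cu, 16.0 to 62.8 counts would have been seen in each Ta library.

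Set in the order of all 8 metals sampled at 12 months, Ta was not alone at the low end. miR-423-5p averaged 10492 CPM in Cu and 5610 CPM in lead (Pb), with 3 metals between these, against 1419 CPM in W, 1698 CPM in cobalt (Co) and 1739 CPM in Ta. The same 3 metals were the lowest for miR-423-3p (355, 437 and 375 CPM in W, Co and Ta), for miR-140-3p (1066, 1087 and 829 CPM) and for miR-378b, which W and Ta lacked and Co held at 1.32 CPM. Cu stood highest of the 8 for miR-423-5p. It stood below Pb alone for miR-423-3p (1611 CPM in Cu, 1901 CPM in Pb), below Pb and depleted uranium (DU) for miR-140-3p, and below aluminium, Pb and DU for miR-378b. Cu differed from its neighbours in these orders by less than the larger SD for miR-423-5p, miR-423-3p and miR-140-3p; for miR-378b it lay above iron, the next lower metal, at 50.3 ± 15.2 CPM in Cu and 31.3 ± 2.8 CPM in iron (SD, n = 4 each).

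**Figure D3:**
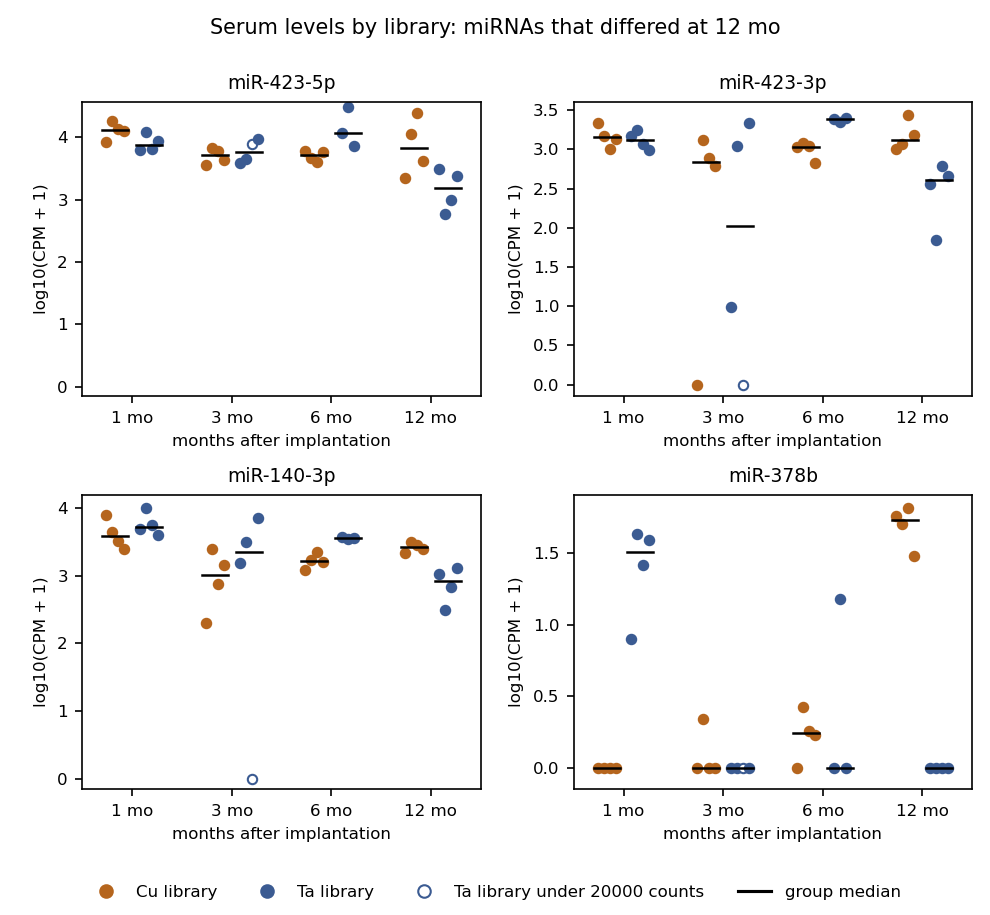
Levels of miR-423-5p, miR-423-3p, miR-140-3p and miR-378b as log10(CPM + 1) by library and month, Cu left of Ta, with a bar at each group's median. At 12 months the Cu libraries lie above all Ta libraries except for 1 Cu library of miR-423-5p, and at 1 month miR-378b shows the reverse, with all 4 Cu libraries at 0.

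Whether the Cu difference changed between months was tested directly, with the 4 monthly differences compared in 1 fit. Of 320 miRNAs 4 were called (1.25%), namely miR-26a-5p (adjusted p = 0.00136), miR-423-5p (0.0134), miR-378b (0.0156) and miR-16-5p (0.0212), and miR-451-5p came next (0.125), while 44 had an unadjusted p under 0.05 (13.8%). Without the low libraries 2 of 326 were called (0.613%), miR-423-5p (adjusted p = 0.0205) and miR-378b (0.0209), while miR-26a-5p had 0.667 and miR-16-5p 1.

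miR-423-5p ran from no clear difference to opposite signs, with log2 0.65 ± 0.52, -0.31 ± 1.02, -1.67 ± 0.77 and 2.59 ± 0.65 at 1, 3, 6 and 12 months. At 6 months it had 5977, 4705, 4003 and 5835 CPM in Cu against 11663, 30114 and 7083 CPM in Ta, all Cu libraries below all Ta libraries. Among the 9 metals of that month Ta had the highest mean, with 5130 CPM in Cu, 8192 CPM in aluminium, the next highest, and 16286 CPM in Ta. The call for miR-423-5p was lost without Ta replicate 3 at 12 months (adjusted p = 0.109), Cu replicate 3 at 12 months (0.0797) or Ta replicate 2 at 6 months (0.263), and it was lost with RLE scaling (0.0689), without the low-count filter (0.222) and with Cu and Ta libraries only (0.0627).

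miR-378b crossed over as well. At 1 month it was at 0 in 4 of 4 Cu libraries and had 6.98, 42.2, 25.2 and 38.5 CPM in Ta, so that it was at least 41.3-fold lower in Cu (adjusted p = 0.444 for that month), where 14.3 to 58.3 counts per Cu library would have matched the Ta mean. No other metal of that month had a mean above 1.25 CPM. At 3 and 6 months counts were few, 2 in 1 Cu library at 3 months, and 2 or 3 in each of 3 Cu libraries and 16 in 1 Ta library at 6 months. The call was lost without Ta replicate 3 at 12 months (adjusted p = 0.0757) or Ta replicate 2 at 6 months (0.0631), and it was lost with DESeq2 (0.254), without the low-count filter (0.0587) and with Cu and Ta libraries only (0.0627).

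For miR-26a-5p and miR-16-5p the month that stood apart was 3 months. miR-26a-5p differed by log2 0.78, -2.92, 0.29 and 0.81, and at 3 months it had 7585, 8919, 12603 and 14063 CPM in Cu against 12953, 19644, 273139 and 22110 CPM in Ta. The highest Ta value is that of the library with 1645 counts, and without it the 3-month difference was -0.54 ± 0.64. miR-16-5p had 0, 533, 839 and 1094 CPM in Cu against 759, 601, 187251 and 3196 CPM in Ta at 3 months, with the low library again far above the rest, and the difference was log2 -6.27 with it and -0.90 ± 1.84 without it. Leaving out Ta replicate 3 at 3 months gave adjusted p-values for the change of 0.635 for miR-26a-5p and 1 for miR-16-5p, and the call for miR-16-5p was lost in 9 of the 31 fits without 1 library, with adjusted p-values of 0.0670 to 1. Both calls were lost with Cu and Ta libraries only (0.0627 each), and that for miR-26a-5p without the low-count filter (0.0645).

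The let-7 family, whose members damp growth-promoting messages and increase as tissues mature, had estimates on opposite sides of Ta at the last 2 months. Members differ by few bases, so reads may have been shared among them, and the 9 do not count as separate observations. At 6 months all 9 members had a higher estimate in Cu (0 lower), with a median log2 difference of 1.24 beside 0.09 over all miRNAs, a range of 0.10 to 2.30, and 5 members without overlap (9.19% of all miRNAs tested that month). Ta had 3 libraries that month, so non-overlap was easier to reach than at 12 months. At 12 months all 9 had a lower estimate in Cu (0 higher), with a median of -0.79 beside 0.05 and a range of -1.55 to -0.39, and 4 members did not overlap (9.38% of all). At 1 month 6 were higher and 3 lower, and at 3 months 8 and 1; without the low libraries it was 7 and 2 at both months, and the splits at 6 and 12 months stayed at 9 and 0 and at 0 and 9. Of the 9, 0 were called at any month by edgeR, and 1 at 6 months and 1 at 12 months had an unadjusted p under 0.05. With RLE scaling the counts were 4 higher and 5 lower at 1 month and 9 and 0 at 3 months, and those at 6 and 12 months did not move.

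let-7g-5p at 6 months had 24979, 25693, 33726 and 39033 CPM in Cu, against 6481, 2366 and 9905 CPM in Ta. The lowest Cu library stood above the highest Ta library, with log2 2.30 ± 0.89 (adjusted p = 0.640), and Ta had the lowest mean of the 9 metals for let-7g-5p. let-7a-5p had 31091, 26263, 28691 and 53627 CPM in Cu against 16102, 9533 and 15637 CPM in Ta at 6 months (log2 1.34 ± 0.84). At 12 months let-7a-5p had 11452, 8775, 16418 and 21019 CPM in Cu against 31485, 42750, 24137 and 40366 CPM in Ta, again without overlap and in the other direction (log2 -1.27 ± 0.63, adjusted p = 0.392). let-7e-5p averaged 482 ± 150 CPM in Cu and 257 ± 45.4 CPM in Ta at 6 months, then 196 ± 49.9 CPM in Cu and 574 ± 281 CPM in Ta at 12 months.

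In all, 7 miRNAs were non-overlapping at both 6 and 12 months, each with opposite signs, a set picked out after its values were seen. Over all miRNAs tested, 25 of 272 did not overlap at 6 months (9.19%) and 21 of 224 at 12 months (9.38%). These shares rest on 3 Ta libraries at 6 months and 4 at 12 months. With all libraries, no miRNA was non-overlapping in the same direction at several months. let-7a-5p, let-7e-5p and miR-125b-5p were above Ta and then below it. miR-140-3p, miR-423-3p, miR-378a-3p and miR-150-3p were below Ta and then above it. miR-378a-3p, made from an intron of the PGC-1 beta gene and abundant in muscle and fat, averaged 1265 ± 651 CPM in Cu and 2966 ± 445 CPM in Ta at 6 months, then 7373 ± 4089 CPM in Cu and 2142 ± 1653 CPM in Ta at 12 months. Its log2 differences were -1.23 ± 1.14 and 1.78 ± 0.89 (adjusted p = 1 and 0.392).

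**Figure D4:**
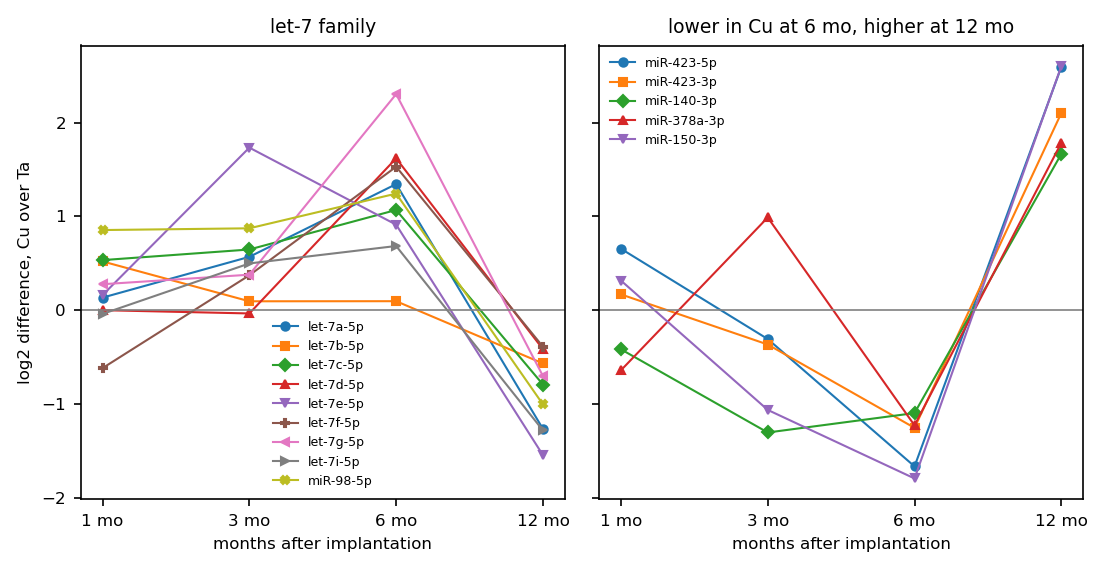
Log2 difference of Cu over Ta at each month for the 9 let-7 members (left) and for 5 miRNAs that were lower in Cu at 6 months and higher at 12 months (right). The let-7 lines lie above 0 at 6 months and below 0 at 12 months, and the 5 others do the opposite.

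Muscle miRNAs, from the tissue that holds the pellets, held 0 called members by edgeR with the low-count filter at any month or in the average. DESeq2 called miR-133a-3p in the average (adjusted p = 6.78e-09) at an estimate of log2 10.97. edgeR gave log2 3.35 for it (adjusted p = 0.501), and 0.85 without Cu replicate 3 at 1 month. Without the filter, edgeR called miR-1-3p (4.15e-07) and miR-1b (7.21e-06) at 1 month. Among 10 listed muscle miRNAs with counts, 9 were tested in the average, with 7 higher and 2 lower in Cu, a median log2 difference of 1.06 beside 0.04 over all; without the low libraries the split was again 7 and 2, with a median of 1.17. For miR-1-3p and miR-1b the higher estimates at the first months rested on single libraries. At 1 month miR-1-3p had 231, 96.5, 11265 and 31.6 CPM in Cu against 181, 46.9, 30.3 and 51.3 CPM in Ta, where 1 Cu library stood far above all others and the other 3 overlapped with Ta. The difference was log2 5.22 ± 1.77 (adjusted p = 0.444), and 0.68 without Cu replicate 3.

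The same Cu library at 1 month had 11312 CPM of miR-1b, against 57.2 to 147 CPM in the other Cu libraries, and held the only miR-133a-3p counts of that month in either group (540 CPM). Without it miR-1b stood at log2 -0.14 in place of 4.39. It also detected the most miRNAs of any Cu library, 263. At 3 months Cu replicate 1 held 11089 CPM of miR-1b, against 0 to 259 CPM in the other Cu libraries and 0 to 343 CPM in Ta, and without it the difference turned to -0.48, against 4.5 with it.

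At 12 months the highest library for miR-1-3p was a Ta one, and the next was a Cu one. miR-1-3p had 3459, 152, 101 and 148 CPM in Cu against 17186, 1470, 0 and 519 CPM in Ta (log2 -2.31 ± 1.52, adjusted p = 0.623), and miR-133a-3p had 158, 31.0, 29.6 and 0 CPM in Cu against 1494, 341, 0 and 0 CPM in Ta. Of 7 tested members 1 was higher and 6 lower in Cu that month, with and without the low libraries. As a share of all counts the listed muscle miRNAs overlapped, with a median of 0.932% in Cu and 0.528% in Ta. miR-206-3p, confined largely to skeletal muscle and raised in regeneration, differed by log2 0.0025, 0.50, -0.65 and -1.31 at the 4 months and by -0.45 ± 0.74 in the average (adjusted p = 1). miR-499-5p, encoded in a slow myosin gene, was seen at 12 months in 0 of 4 Cu libraries and in 1 of 4 Ta libraries, at 104 CPM in the Ta library that held the most miR-1-3p.

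**Figure D5:**
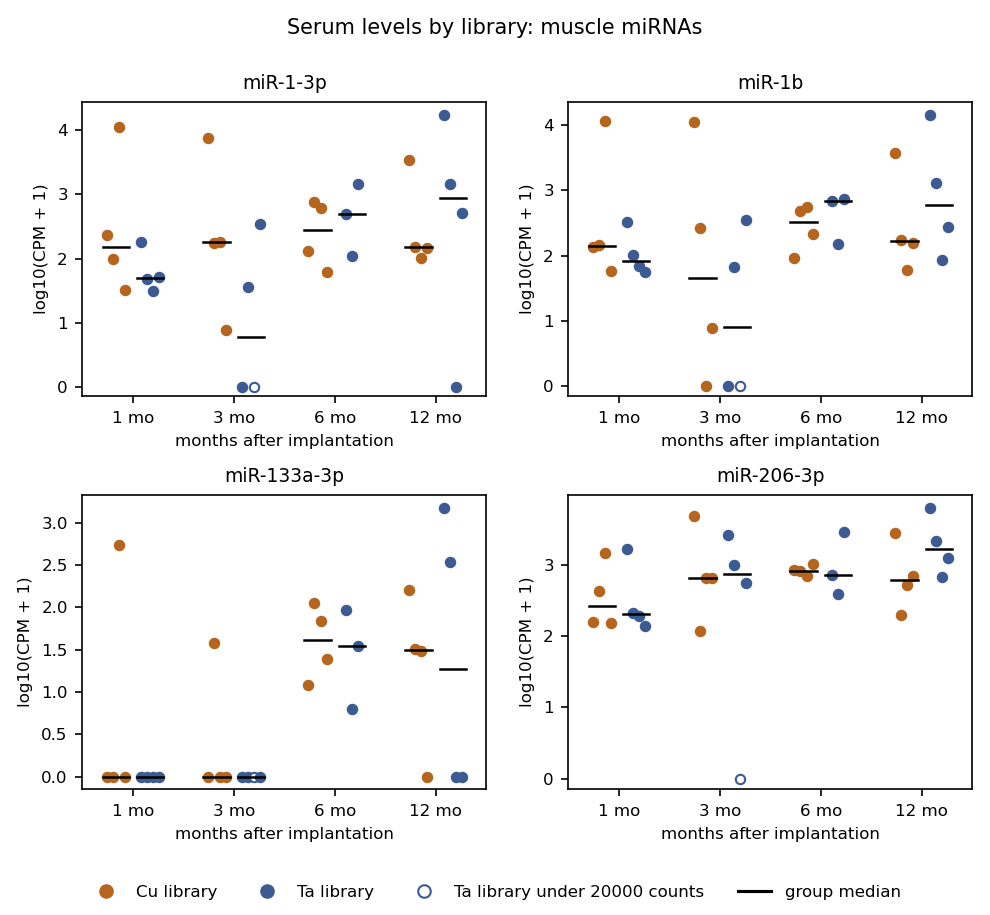
Levels of the muscle miRNAs miR-1-3p, miR-1b, miR-133a-3p and miR-206-3p as log10(CPM + 1) by library and month, Cu left of Ta, with a bar at each group's median. Single libraries stand out, 1 of Cu at 1 month and 1 at 3 months and 1 of Ta at 12 months, while most other points of the groups overlap.

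At 1 month miR-30d-5p, of the miR-30 family, had 3637, 1880, 3859 and 2967 CPM in Cu against 1956, 782, 1245 and 1615 CPM in Ta. The groups overlapped by 1 library (log2 1.14 ± 0.37, adjusted p = 0.444; 1.21 ± 0.30 and 0.0960 without the low library of the month, a Co one). Ta had the lowest mean of the 9 metals, and Cu, with 3086 CPM, stood above Ta and Co. miR-6216 had 447, 558, 391 and 166 CPM in Cu against 124, 28.2, 139 and 51.3 CPM in Ta, without overlap (log2 2.19 ± 0.77, adjusted p = 0.444), and Cu had the highest mean of the 9 metals, 390 CPM, the next being Pb at 155 CPM.

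miR-320-3p, cut by Dicer without Drosha, was lower in every Cu library at 1 month, with 2756, 3778, 2918 and 2691 CPM in Cu against 8468, 7556, 6153 and 3948 CPM in Ta (log2 -1.11 ± 0.48, adjusted p = 0.491). Cu had the lowest mean of the 9 metals for miR-320-3p. The other 2 miRNAs with the smallest p among those lower in Cu at 1 month rested on Ta replicate 3: miR-124-3p, a neuronal miRNA, had 2556 CPM there and 0 CPM in the other Ta libraries, against 0 to 7.71 CPM in Cu, and miR-196a-5p had 15.1 CPM there and 0 CPM in every other Cu and Ta library of that month. Without that library the miR-124-3p difference turned to log2 4.48.

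At 3 months, beside miR-451-5p, miR-16-5p and miR-26a-5p, the smallest p-values belonged to miRNAs with few detections. miR-183-5p was seen in 1 of 4 Cu libraries (720 CPM) and 0 of 4 Ta libraries, and miR-196a-5p in 2 of 4 Cu libraries (450 and 56.1 CPM) and 0 of 4 Ta libraries. miR-107-3p was at 0 in 4 Cu libraries and was seen in 2 of 4 Ta libraries (11.8 and 127 CPM). miR-10b-5p, from a Hox cluster, was detected everywhere, with 63707, 301070, 26936 and 47886 CPM in Cu against 5321, 17592, 17023 and 66665 CPM in Ta, overlapping (log2 2.04 ± 1.05, adjusted p = 0.857). Without the low library 8 of the 167 miRNAs did not overlap at 3 months, all 8 with Cu below Ta, against 2 of 167 with it. Non-overlap is easier to reach with 3 Ta libraries than with 4.

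At 6 months miR-99a-5p, of the family of miR-100, had 71913, 32557, 48125 and 12990 CPM in Cu against 12189, 8286 and 7948 CPM in Ta, without overlap (log2 2.13 ± 0.80, adjusted p = 0.640). miR-361-3p was seen in 0 of 4 Cu libraries and in 3 of 3 Ta libraries, at 32.0, 6.24 and 41.2 CPM. Against a floor of 3 counts over the Cu group it was at least 73.0-fold lower in Cu (adjusted p = 0.640), and 28.9 to 77.0 counts per Cu library would have matched the Ta mean. In each of the other months Cu libraries did hold it, 3 of 4 at 1 month. miR-106b-5p and miR-19a-3p, of the miR-17-92 group of clusters, and miR-16-3p were likewise at 0 in all 4 Cu libraries, and were seen in 2, 2 and 1 of 3 Ta libraries. miR-30c-2-3p and miR-425-3p ran the other way, each seen in 3 of 4 Cu libraries and 0 of 3 Ta libraries.

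At 12 months, of the miRNAs lower in Cu, those ranked first by p were miR-100-5p, miR-30e-5p, miR-499-5p and miR-125b-5p (adjusted p = 0.392 for each). miR-125b-5p, which shares its seed with miR-351-5p, had 5012, 4265, 5911 and 6223 CPM in Cu against 8125, 9753, 10115 and 29942 CPM in Ta, without overlap (log2 -1.44 ± 0.68). miR-100-5p had 7277, 4988, 9802 and 3351 CPM in Cu against 50579, 23108, 9169 and 11911 CPM in Ta, and miR-30e-5p 540, 391, 646 and 181 CPM in Cu against 2100, 1856, 1544 and 548 CPM in Ta. For each of these 2, the Cu and Ta ranges overlapped at the edge.

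miR-191a-5p, an abundant miRNA of platelets, showed its largest difference at 12 months, with 149926, 165819, 358629 and 39796 CPM in Cu against 41606, 37566, 12636 and 14595 CPM in Ta (log2 2.75 ± 0.98, adjusted p = 0.216; 2.94 ± 0.90 and 0.120 without the low library). The lowest Cu library fell below the highest Ta library. Among the 8 metals of that month Ta had the lowest mean, 26601 CPM, while Cu, at 178543 CPM, lay below aluminium, iron and DU. The 6 listed platelet miRNAs together made up 12.8% to 31.6% of counts in Cu and 6.49% to 8.74% in Ta at 12 months, without overlap, and overlapped at the other 3 months. That sum includes miR-191a-5p, which alone held 18.7% and 26.1% of counts in Cu replicates 2 and 3. At 12 months 4 of the 6 members had a higher and 2 a lower estimate in Cu, with 0 called. In the average miR-191a-5p differed by 0.81 ± 0.42 (adjusted p = 0.697).

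In the average, the miRNAs higher in Cu that ranked first by p were ones that most libraries lacked. miR-542-3p, encoded 1066 bases from miR-450b-5p on chromosome X, was detected in 9 of 16 Cu libraries and 2 of 15 Ta libraries. At 1 month it had 39.2, 373, 185 and 426 CPM in Cu and 0, 0, 45.4 and 0 CPM in Ta, and at 12 months 29.0, 79.7, 107 and 0 CPM in Cu and 0 CPM in all 4 Ta libraries. miR-34c-5p, a p53-induced miRNA with the seed GGCAGUG, was detected in 7 of 16 Cu libraries and 1 of 15 Ta libraries, and miR-3074 in 6 of 16 and 0 of 15. Each of the 3 had an adjusted p of 0.10, and 0.173 without the low libraries; without Ta replicate 3 at 1 month miR-542-3p and miR-34c-5p were called (0.0307 and 0.0357).

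Further down that order were miR-30c-2-3p (8 of 16 Cu and 2 of 15 Ta libraries), miR-181c-3p (10 and 5), miR-425-3p (9 and 5), miR-450b-5p (11 and 6), miR-133b-3p (5 and 2), miR-133a-3p (9 and 5) and miR-326-3p (9 and 3), with adjusted p-values of 0.284 to 0.501. Cu libraries were deeper at 1 and 6 months, and the part of depth in these detections was not tested. Among those lower in Cu, miR-32-5p was detected in 3 of 16 Cu and 4 of 15 Ta libraries, miR-107-3p in 11 and 12, miR-361-3p in 7 and 8, miR-99b-3p in 3 and 4, miR-455-3p in 8 and 7, miR-340-3p in 6 and 6, miR-125a-3p in 9 and 9 and miR-96-5p in 11 and 12, with adjusted p-values of 0.328 to 0.727.

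The liver's miR-122-5p had a higher estimate in Cu at all 4 months, by log2 0.76, 0.77, 0.05 and 0.29, and by 0.37 ± 0.43 in the average (adjusted p = 1). At 12 months it had 313992, 42077, 100616 and 219950 CPM in Cu against 94896, 217834, 166428 and 74920 CPM in Ta, overlapping. At 1 month the tested liver miRNAs split 2 higher and 4 lower in Cu, with a median log2 of -0.80 beside 0.23 over all. The splits were 4 and 1 at 3 months, 4 and 2 at 6 months and 3 and 3 at 12 months. The listed liver miRNAs' share of all counts overlapped at every month. Its medians were 7.22%, 11.2%, 5.74% and 24.9% in Cu and 10.3%, 6.66%, 12.4% and 20.1% in Ta, in order of month. miR-21-5p, a marker of inflammation and fibrosis, stood at -0.02 ± 0.39 in the average (adjusted p = 1), and at 6 months had 2414, 2649, 2384 and 2646 CPM in Cu against 2243, 1762 and 2007 CPM in Ta, a difference without overlap but of only log2 0.33 ± 0.79 (adjusted p = 1). miR-210-3p, induced by hypoxia, was detected in 4 of 16 Cu libraries and 1 of 15 Ta libraries, at no more than 19 counts.

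Of the 165 miRNAs tested at all 4 months, 9 had a higher estimate in Cu every time and 6 a lower one. With the low libraries left out at 3 months only, it was 14 and 6 of 175. Some miRNAs would keep 1 sign at all 4 months without any difference, and their number was not estimated. In the fit with all libraries, the names were as follows. The 9 were miR-143-3p and miR-145-5p (smooth-muscle miRNAs of 1 cluster), miR-122-5p, miR-99b-5p, miR-30e-3p, miR-351-5p, miR-191a-3p, miR-505-3p and miR-383-5p, and the 6 were miR-451-5p, miR-144-3p, miR-484, miR-148b-3p, miR-92b-3p and miR-127-3p. Of these 15, miR-451-5p alone was called, in the average.

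The remaining lists held 0 called members in the average by edgeR, with or without the low libraries. The 37 of 320 miRNAs called by DESeq2 in the average included miR-34c-5p of the p53-induced list (adjusted p = 1.89e-12). Its DESeq2 estimate was log2 15.7, against 4.83 by edgeR, and most libraries lacked it. Counting higher and lower estimates in Cu, the 6 tested liver miRNAs split 4 and 2, the 4 endothelial 2 and 2, the 6 platelet 4 and 2, the 7 leukocyte 3 and 4, the 7 inflammation-response 1 and 6, the 9 fibroblast and fibrosis 4 and 5, the 8 hypoxia and oxidative-stress 5 and 3, the 6 p53-induced 3 and 3, the 9 let-7 members 7 and 2, the 11 of the miR-17-92 and related clusters 3 and 7, and the 8 kidney and epithelial 4 and 4. Over all 320 miRNAs 162 were higher and 154 lower. Without the low libraries the 7 inflammation-response miRNAs split 3 and 4, the 7 then tested liver miRNAs 5 and 2, the platelet list 5 and 1, the fibroblast list 5 and 4, the 9 then tested hypoxia miRNAs 6 and 3 and the kidney list 5 and 3, and the other lists split as before.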

How the data were processed

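Serum total RNA was made into small-RNA libraries with a Norgen Biotek kit and sequenced on a NextSeq 500, per the labels' protocols. The authors deposited raw read counts per mature rat miRNA, 471 names in 35 groups of metal and month, not normalized; the assembly was Rnor_6.0, per the submitters' processing notes. Of the aligner, the counting tool and the miRNA annotation release, the sources used here name none.

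From these counts, edgeR 4.0.16 (R 4.3.3) filtered miRNAs with filterByExpr (minimum count 10, minimum total 15), scaled with TMM and ran the quasi-likelihood test. Each month was fitted with all metals of that month, which share 1 estimate of the spread; the equal-weight average over months and the F test of change between months were fitted on the libraries of all 35 groups. P-values were adjusted by the Benjamini-Hochberg method within a comparison, and 0.05 was the threshold. The standard error of a log2 difference was its absolute value divided by the square root of the F statistic. CPM used TMM factors computed within a month. For a group at 0 a fold was bounded at a floor of 3 counts over that group; floors and intervals cover counting error only. The haemolysis ratio had a prior count of 0.5 per miRNA, and library measures were compared by exact two-sided permutation of the means. No 2 libraries held identical values (0 identical columns). Scripts were tested on simulated data.

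Alternatives were the removal of the 6 libraries under 20000 counts, RLE size factors, no filter on low counts, DESeq2 1.42.0, the replicate number as a block, Cu and Ta libraries only, and each Cu or Ta library left out in turn. Named miRNAs were, at each month, the 4 with the smallest p in each direction, the 10 in each direction in the average, the 5 with the smallest p for change, every called miRNA, non-overlapping miRNAs and members of described lists. The members and the 13 lists (97 distinct miRNAs, 91 of them in the table) were chosen with earlier results of these data known. Mature sequences are RefSeq's for GRCr8, used for names, letters and positions on that assembly only.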

Additional observations from a re-analysis of the deposited data

Results flagged for a closer look

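In groups of 4 libraries, the gap of a library to its nearest neighbour was divided by the whole range of the group. This passed Dixon's critical value in 11 of 92 group values. No chance rate can be set beside that count, because Dixon's value is meant for normal samples and some of these levels are 0. A group with a single library above 0 passes by construction, as for miR-210-3p and miR-378b below. The levels also include those of miR-16-5p and miR-378b, which were called for change from the same libraries. Cu replicate 3 at 1 month detected 263 miRNAs, against 202 to 212 in the other 3, and Cu replicate 2 at 3 months detected 207, against 76 to 90. The rest are levels as log2(CPM + 1). miR-21-5p stood at 11.24 in Cu replicate 1 at 1 month, against 10.42 to 10.48 in the others, and at 0 in Ta replicate 3 at 3 months, the library of 1645 counts, against 12.58 to 13.13. miR-16-5p was at 0 in Cu replicate 1 at 3 months, against 9.06 to 10.10, and at 8.01 in Cu replicate 1 at 6 months, against 10.27 to 10.38. miR-1-3p stood at 11.76 in Cu replicate 1 at 12 months, against 6.67 to 7.26. miR-378b stood at 1.12 in Cu replicate 2 at 3 months, with the others at 0. miR-210-3p was seen in a single library of its group in 3 cases, at 3.32 in Cu replicate 3 at 1 month, 4.20 in Cu replicate 1 at 6 months and 2.59 in Ta replicate 3 at 1 month.

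The difference of Cu from Ta differed between months for 4 miRNAs by edgeR's F test of that change, with adjusted p-values of 0.00136 for miR-26a-5p, 0.0134 for miR-423-5p, 0.0156 for miR-378b and 0.0212 for miR-16-5p.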

How the results depend on the processing

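Without the libraries under 20000 counts the number of called miRNAs was 4 at 12 months, 0 in the average and 2 for change between months, against 0, 1 and 4 with them. Without the low-count filter it was 7 at 1 month, 2 at 3 months, 4 at 12 months and 2 in the average; for change it was 5, of which 1, miR-16-5p, was among the 4 called with the filter. DESeq2 called 3, 3, 6 and 12 at 1, 3, 6 and 12 months and 37 of 320 in the average, and RLE size factors gave 3 at 3 months. With Cu and Ta libraries only, the average and the change each had 0 calls, and miR-451-5p in the average stood at log2 -2.26 (adjusted p = 0.0517). With 1 Cu or Ta library left out, calls ranged from 0 to 1 at 1 month, 0 to 3 at 3 months, 0 to 0 at 6 months, 0 to 3 at 12 months, 0 to 3 in the average and 1 to 6 for change; the library measures kept 0. At 3 months miR-451-5p, miR-16-5p and miR-26a-5p were called when Ta replicate 1, 2 or 4 was left out (adjusted p = 0.0196, 0.0200 and 0.0167 for each of the 3 miRNAs). The cause was not tested.

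For 63 named results, 1465 of 1569 alternatives kept direction and side of the threshold, 30 were no longer past it, 53 were now past it and 21 reversed. Reversals were miR-1b at 1 month without Cu replicate 3 (log2 -0.14; range -0.14 to 5.27 over libraries left out), miR-1b at 3 months without Cu replicate 1 (-0.48; -0.48 to 6.48), miR-124-3p at 1 month without Ta replicate 3 (4.48; -12.64 to 4.48) and miR-21-5p in the average, which lies near 0 (0.00096 without the filter; -0.10 to 0.092); the cause was not tested. Leaving out the only library with counts gave no value for miR-196a-5p, miR-183-5p, miR-16-3p and miR-499-5p at 1, 3, 6 and 12 months in that order.

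With the replicate number as a block the counts of calls were 0, 0, 0 and 0 at the 4 months, 1 in the average and 4 for change; miR-451-5p in the average was -2.11 (adjusted p = 0.0375), and no call among the 63 named results changed. Deviations of same-numbered Cu and Ta libraries correlated by -0.158 to 0.186, over 0.1 in 4 of 15 pairs. Libraries of unlike numbers were not compared, and whether same-numbered libraries share more than the number was not tested. The fewest miRNAs could be tested at 3 months, 167 against 270, 272 and 224 at 1, 6 and 12 months; the part of depth in this was not tested.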
